A study of Homo sapiens with 4 samples.

Results

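The genes described here encode the CDK-activating kinase and the general transcription factor TFIIH: CDK7, CCNH, MNAT1, ERCC2, ERCC3, GTF2H1, GTF2H2, GTF2H3, GTF2H4 and GTF2H5. They were chosen by name as the known subunits of these complexes, and they are 10 of the 60279 genes in each count table. RNA was sequenced from SUM159, an established cell line of triple-negative breast cancer, in 4 libraries. The cells of 1 library were left untreated, and those of the others received palbociclib, indisulam or palbociclib with indisulam (the combination). Palbociclib is an inhibitor of CDK4 and CDK6, the kinases of early cell cycle entry, whereas indisulam is a molecular glue that leads to the degradation of the splicing factor RBM39. The sample labels give 0.5 µM palbociclib and 2 µM indisulam over 10 days, whereas the series text gives 2 µM, 3 µM and 16 h with technical duplicates. The paper describes both settings for SUM159 in separate RNA sequencing experiments, the first for senescence gene sets and the second for splicing errors. Which of these applies to the libraries here was not settled. For the splicing data the paper names the aligner Hisat2, for the senescence data it names none, and the submitters' processing notes name TopHat2. Neither the labels nor the series text says whether duplicates were pooled into a library. A single cell line was used, and every difference below is between single libraries with no replicate check and no p-value.

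CDK7, its cyclin partner cyclin H (the product of CCNH) and the assembly factor MAT1 (the product of MNAT1) form the CDK-activating kinase. This trimer phosphorylates the activation loop of other cyclin-dependent kinases, and as the kinase module of TFIIH it phosphorylates the tail of RNA polymerase II. The TFIIH core holds the helicases XPB (ERCC3) and XPD (ERCC2) with 5 further subunits, opens promoter DNA at the start of transcription and unwinds damaged DNA in nucleotide excision repair. The comparison answers whether the lower CCNH count with indisulam was shared by the genes of its partner subunits.

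The libraries held 12555908 to 16712174 reads in genes, so that the floor of 3 counts used here was 0.180 to 0.239 CPM (read counts relative to the gene total of the library). Of the 29056 genes with a count in any library, 14269 reached a mean of 1 CPM and were tested. Tested genes included 9 of the 10 subunit genes and excluded GTF2H4, at a mean of 0.758 CPM. VIM, a mesenchymal marker, was at 2642.5 to 4597.5 CPM and CD44 at 706 to 883 CPM. The oestrogen receptor gene ESR1 was at 0.239 to 1.11 CPM and the progesterone receptor gene PGR at 0 to 0.209 CPM, which matches a line without these receptors. Of the other marker genes, EPCAM, CDH1 and the hepatocyte gene ALB did not exceed 1.95 CPM. ERBB2 was at 110 to 143 CPM, the leukocyte gene PTPRC at 11.1 to 17.5 CPM, the endothelial gene PECAM1 at 15.2 to 40.9 CPM and COL1A1 at 1246 to 2807 CPM, and their part in any result was not tested.

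The promoters of the 3 tested subunit genes whose counts moved furthest for indisulam against untreated are shown to place the changes in the genome. Each is the RefSeq stretch (GRCh38.p14) from 250 bases before to 50 bases after the start, written 5′ to 3′ on the strand of the gene. Capitals mark the letters GGGCGG (the GC box), the CCAAT box and CCGGAAG (an ETS-type motif) on either strand. CCNH lies at chr5:87412881-87413180 on the minus strand, GTF2H1 at chr11:18322317-18322616 on the plus strand and ERCC2 at chr19:45370524-45370823 on the minus strand. The start is that of RefSeq. For GTF2H1 and ERCC2 the GENCODE gene bounds given below begin further upstream, so both stretches lie within those bounds.
CCNH: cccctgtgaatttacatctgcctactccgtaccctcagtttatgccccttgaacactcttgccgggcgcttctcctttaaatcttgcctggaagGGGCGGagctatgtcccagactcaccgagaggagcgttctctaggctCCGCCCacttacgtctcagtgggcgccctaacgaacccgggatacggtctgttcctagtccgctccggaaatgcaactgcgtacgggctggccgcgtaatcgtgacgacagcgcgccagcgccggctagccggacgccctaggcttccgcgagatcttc
GTF2H1: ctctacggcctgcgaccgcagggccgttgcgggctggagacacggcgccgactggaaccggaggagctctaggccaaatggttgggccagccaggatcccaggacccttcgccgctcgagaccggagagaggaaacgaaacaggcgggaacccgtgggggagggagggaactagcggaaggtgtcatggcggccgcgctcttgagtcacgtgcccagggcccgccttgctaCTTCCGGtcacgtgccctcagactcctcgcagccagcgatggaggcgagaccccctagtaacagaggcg
ERCC2: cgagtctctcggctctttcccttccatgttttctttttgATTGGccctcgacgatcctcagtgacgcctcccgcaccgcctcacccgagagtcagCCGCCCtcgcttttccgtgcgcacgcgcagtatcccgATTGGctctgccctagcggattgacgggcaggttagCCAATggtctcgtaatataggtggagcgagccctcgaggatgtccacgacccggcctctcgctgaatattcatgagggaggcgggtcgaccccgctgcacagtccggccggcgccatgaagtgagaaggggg

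The search covered both strands of the 10 promoters for 4 short motifs, these 3 and TATAAA (the TATA box), and no matches overlapped. CCNH held 2 copies of GGGCGG, which occurs in 45% of the 35116 promoters in the RefSeq table. GTF2H1 held 1 copy of CCGGAAG, found in 10.3% of all promoters. ERCC2 held 3 copies of CCAAT, found in 34.6% of all promoters, and 1 of GGGCGG. MNAT1 held none of these letters, and no subunit gene held TATAAA, which occurs in 11.5% of all promoters. The ETS-type motif was also present in the promoters of ERCC3 (2 copies), GTF2H3 (2) and GTF2H2 (1). The GC box was also present in those of CDK7, GTF2H2, GTF2H3 and GTF2H4 (1 copy each) and GTF2H5 (2). GTF2H4 further held 1 CCAAT box. The ETS-type motif and the GC box were thus not limited to genes with lower counts under indisulam. A match describes these letters only.

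CCNH had lower counts in both libraries with indisulam than in both without it. Without treatment it had 558 counts (44.4 CPM) and with palbociclib 572 (45.1 CPM), against 410 (24.5 CPM) under indisulam and 274 (19.1 CPM) under the combination. The 2 libraries without indisulam were nearly level, and the combination library was the lowest of the 4. Ratios are of counts scaled to a common library total, each with 1 scaled count added, and are given as log2 values with 95% intervals for Poisson counting error in brackets. CCNH was 1.81-fold lower with indisulam than without treatment, a log2 ratio of -0.86 (-1.04 to -0.67). It was 2.36-fold lower with the combination than with palbociclib alone, a log2 ratio of -1.24 (-1.44 to -1.03). These estimates share no library. By contrast, the log2 ratio of palbociclib to untreated was 0.02 (-0.15 to 0.19), an interval that holds 0. In RNA from whole cultures, fewer cells with a transcript and less of it per cell cannot be told apart.

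**Figure D1:**
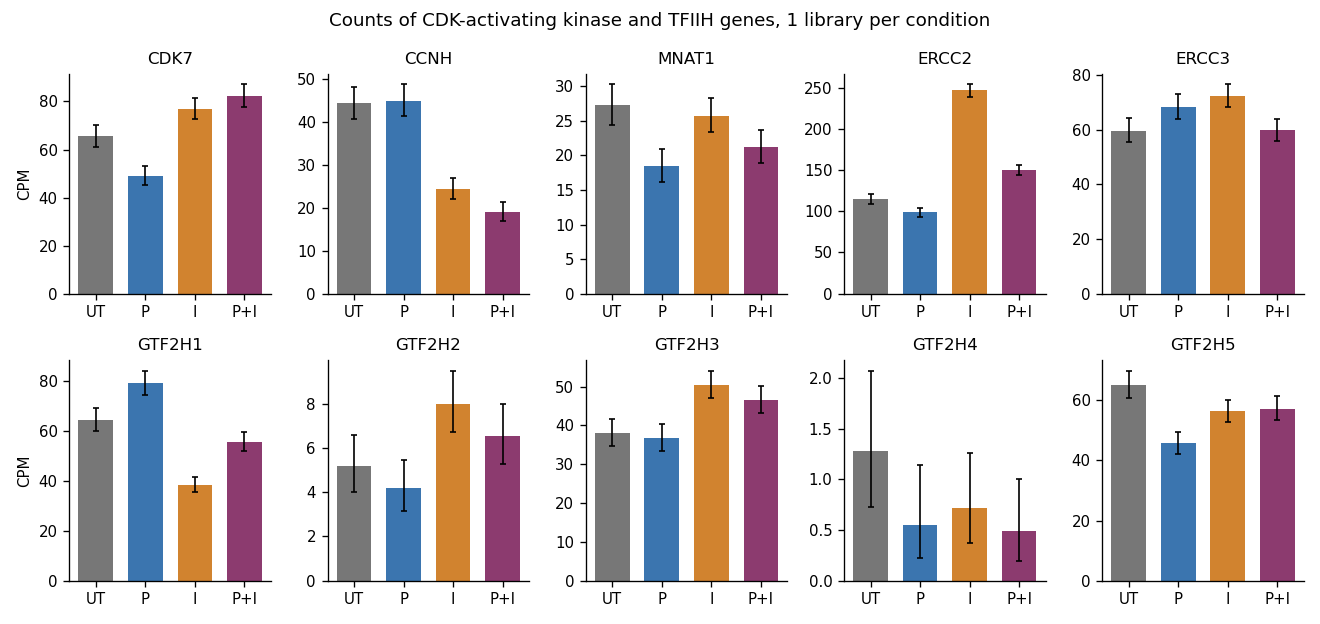
CPM of the 10 subunit genes (vertical axes, each scaled to its gene and starting at 0) in the untreated (UT), palbociclib (P), indisulam (I) and combination (P+I) libraries, with 1 library per bar and exact 95% Poisson intervals as error bars. CCNH stands at 44.4 and 45.1 CPM without indisulam and at 24.5 and 19.1 CPM with it, whereas ERCC2 is highest with indisulam at 246.5 CPM.

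The partners of cyclin H in the kinase did not show this pattern. CDK7, the catalytic subunit, was at 65.5 CPM without treatment, 48.9 CPM under palbociclib, 76.9 CPM under indisulam and 82.4 CPM under the combination. Both libraries with indisulam were therefore above both libraries without it, the opposite order to CCNH. On the log2 scale CDK7 was at 0.23 (0.11 to 0.36) for indisulam against untreated and at 0.75 (0.61 to 0.89) for combination against palbociclib. MNAT1 was at 27.2, 18.4, 25.7 and 21.2 CPM in the same order. The libraries with and without indisulam overlapped for MNAT1, and its log2 ratios were -0.08 (-0.29 to 0.12) and 0.20 (-0.05 to 0.44), whose intervals hold 0.

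Within the kinase trimer, the balance of transcripts therefore differed between libraries. CCNH made up 32.4% of the counts of the 3 genes in the untreated library (Wilson 95% interval 30.2 to 34.7) and 40.1% with palbociclib (37.6 to 42.7). It made up 19.3% with indisulam (17.7 to 21.0) and 15.6% with the combination (13.9 to 17.3). The intervals of the libraries with indisulam lay below those of the libraries without it. Over the same libraries CDK7 made up 47.7%, 43.5%, 60.5% and 67.2%. For each count of CDK7 there were 0.679 counts of CCNH without treatment, 0.921 with palbociclib, 0.319 with indisulam and 0.232 with the combination. For each count of MNAT1 there were 1.63, 2.44, 0.953 and 0.901. These ratios of counts are not corrected for gene length, so only their change between libraries can be read.

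ERCC2, the gene of the XPD helicase, was the subunit gene with the highest ratio for indisulam against untreated. Its level was 114.9 CPM without treatment, 98.8 CPM under palbociclib, 246.5 CPM under indisulam and 150.1 CPM under the combination. Both libraries with indisulam were above those without it, but the combination library was well below the indisulam library. Indisulam gave a log2 ratio of 1.10 (1.01 to 1.19) against untreated, and the value was 0.60 (0.50 to 0.70) for combination against palbociclib. Between the combination and indisulam it was -0.72 (-0.79 to -0.64). ERCC2 made up 23.6%, 22.2%, 41.1% and 30.1% of the counts of all 10 genes in the untreated, palbociclib, indisulam and combination libraries, whereas CCNH made up 9.14%, 10.1%, 4.09% and 3.82%.

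ERCC3, the gene of the XPB helicase, was at 59.7, 68.4, 72.5 and 59.9 CPM in the same order of libraries. The estimates for indisulam had opposite signs, at 0.28 (0.15 to 0.41) against untreated and -0.19 (-0.33 to -0.06) with palbociclib present. Untreated and combination libraries were thus nearly level for this gene, with a log2 ratio of 0.01 whose sign changed with the scaling (-0.09 to 0.02).

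GTF2H1, the gene of the p62 core subunit, was the only tested subunit gene besides CCNH that was lower in both comparisons with indisulam with intervals below 0. Its level was 64.6 CPM without treatment, 79.2 CPM under palbociclib, 38.5 CPM under indisulam and 55.6 CPM under the combination. The libraries with indisulam were below those without it. Unlike CCNH, GTF2H1 was higher with palbociclib in both backgrounds, with log2 ratios of 0.29 (0.16 to 0.43) against untreated and 0.53 (0.38 to 0.68) for combination against indisulam. Its log2 ratios for indisulam were -0.74 (-0.89 to -0.60) against untreated and -0.51 (-0.64 to -0.37) with palbociclib present.

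GTF2H3, the gene of the p34 core subunit, was at 38.1, 36.8, 50.6 and 46.6 CPM, with both libraries with indisulam above those without it. Its log2 ratios for indisulam were 0.41 (0.24 to 0.57) and 0.34 (0.17 to 0.51). GTF2H5 encodes the small subunit TTDA and was at 65.2, 45.7, 56.4 and 57.3 CPM. The untreated library was the highest for GTF2H5 and the palbociclib library the lowest, so that the ratio for indisulam was -0.21 (-0.35 to -0.08) against untreated and 0.33 (0.17 to 0.48) with palbociclib present.

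GTF2H4, the gene of the p52 core subunit, had 16, 7, 12 and 7 counts, or 1.27, 0.55, 0.72 and 0.49 CPM. Its ratios for indisulam were -0.77 (-1.77 to 0.23) and -0.16 (-1.49 to 1.17), so a difference with indisulam was not detectable at this depth. In GENCODE release 44, 79.7% of its exon bases (1858 bases) also belong to the gene ENSG00000288473 on the same strand, which is not among the genes of the count tables used here. The part of this overlap in the low counts was not tested.

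GTF2H2, the gene of the p44 core subunit, lies in a duplicated stretch of chromosome 5 with the copies GTF2H2C and GTF2H2B (a pseudogene). Exon windows had 65 bases, the single-end read length the study states for its expression data. Of these windows, 87.5% in GTF2H2 occur again elsewhere in the primary assembly, against 84.7% in GTF2H2C and 93.5% in GTF2H2B. Alternate haplotype sequences were not searched. The study states longer paired-end reads for its splicing data, and windows of that length were not examined. In none of the other 9 subunit genes did more than 1.92% of windows recur, and in CCNH 0% did. Reads from such windows align to several places and were tallied apart from the genes, so the counts of GTF2H2 come from a small part of its exons. A coding window that is the same base for base in the 3 genes is shown as an example, since a read from it cannot be assigned. It lies at chr5:71035680-71035744 in GTF2H2 (minus strand), chr5:69592131-69592195 in GTF2H2C (plus strand) and chr5:70447286-70447350 in GTF2H2B (plus strand) of GRCh38.
GTF2H2, GTF2H2C and GTF2H2B: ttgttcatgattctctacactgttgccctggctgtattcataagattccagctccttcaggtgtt

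GTF2H2 had 65 counts without treatment, 53 under palbociclib, 134 under indisulam and 94 under the combination. The libraries with indisulam were above those without it, and its log2 ratios were 0.62 (0.20 to 1.05) and 0.64 (0.16 to 1.12). GTF2H2C had 152, 238, 193 and 172 counts and GTF2H2B had 31, 25, 29 and 23. Summed over the 3 genes, an alternative added after the data were seen, the log2 ratios became 0.11 (-0.12 to 0.34) and -0.31 (-0.54 to -0.08). The direction for GTF2H2 is therefore uncertain, since it turned with the copies included in the comparison with palbociclib present.

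**Figure D2:**
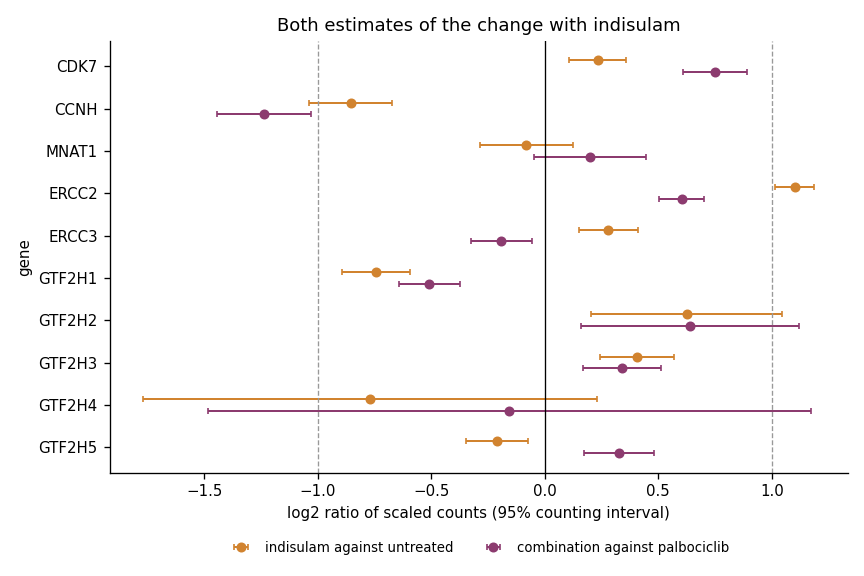
Log2 ratios of scaled counts (horizontal axis) for the 10 subunit genes, for indisulam against untreated and for combination against palbociclib, with 95% Poisson counting intervals and dashed lines at 2-fold. CCNH has the lowest point in both comparisons, at -0.86 and -1.24, and ERCC2 has the highest for indisulam against untreated, at 1.10.

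Calls required a difference of 2-fold or more and a counting interval without the ratio of 1. For indisulam against untreated, no tested subunit gene was called lower, beside 6.71% of all tested genes, and 1 (ERCC2) was called higher, beside 8.44%. At 1.5-fold, CCNH and GTF2H1 were called lower, beside 14.3% of all tested genes, and ERCC2 and GTF2H2 higher, beside 17.3%. CCNH thus passed the 1.5-fold but not the 2-fold threshold in this comparison. With 9 genes tested, these counts are near the shares over all genes.

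For combination against palbociclib, CCNH was the 1 subunit gene called 2-fold lower, beside 7.4% of all tested genes, and none was called higher, beside 9.62%. At 1.5-fold, CCNH was again the 1 gene called lower, beside 14.5%, and CDK7, ERCC2 and GTF2H2 were called higher, beside 18.5%. Across all tested genes, 8.91% had a lower ratio than CCNH for indisulam against untreated and 4.98% did for combination against palbociclib. A value as low as that of CCNH was therefore not rare in these libraries.

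For palbociclib against untreated, no subunit gene was called lower or higher at 2-fold, beside 4.95% and 5.96% of all tested genes, nor at 1.5-fold, beside 12.3% and 12.7%. For combination against indisulam, none was called at 2-fold, beside 3.19% lower and 5.09% higher, and 1 (ERCC2) was called 1.5-fold lower, beside 10.3%, with none higher, beside 12.1%. CCNH had a log2 ratio of -0.36 (-0.58 to -0.14) in that comparison and CDK7 of 0.10 (-0.02 to 0.21). For MNAT1, palbociclib gave -0.56 (-0.80 to -0.32) against untreated and -0.28 (-0.49 to -0.07) with indisulam present. GTF2H5 was at -0.51 (-0.67 to -0.36) and CDK7 at -0.42 (-0.57 to -0.27) for palbociclib against untreated, below 1.5-fold.

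The combination against untreated shares a library with each of the comparisons above and adds no independent value. In it, CCNH was the 1 tested subunit gene called lower at 2-fold, beside 10.6% of all tested genes, and at 1.5-fold, beside 19.5%, with a log2 ratio of -1.22 (-1.42 to -1.01). None was called higher at 2-fold, beside 13%, or at 1.5-fold, beside 23.2%. The combined counts of all 10 genes were 486 CPM without treatment, 446 with palbociclib, 600.4 with indisulam and 499 with the combination. The higher totals came with ERCC2: with that gene left out, the sum was 371 CPM without treatment, 347 under palbociclib, 354 under indisulam and 349 under the combination, so that all 3 treated libraries were below the untreated library.

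Set against the other subunit genes within the same libraries, a difference that does not depend on the scaling, CCNH stood 1.09 log2 units below their median for indisulam against untreated (-1.09) and 1.56 below it for combination against palbociclib (-1.56). The median of the other 9 genes was 0.23 and 0.33 in these comparisons, beside 0.06 and 0.07 for all tested genes. None of the 9 had a lower ratio than CCNH in either comparison, the lowest being GTF2H4 at -0.77 and GTF2H1 at -0.51. For palbociclib against untreated, CCNH stood 0.33 above the median of the others, and 7 of the 9 had a lower ratio.

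Differences taken gene by gene carry intervals for counting error only, and variation between cultures was not tested for them. The difference from CCNH had an interval below 0 for 7 of the 9 genes for indisulam against untreated. Its interval held 0 for GTF2H1, at -0.11 (-0.35 to 0.13), and for GTF2H4, at -0.09 (-1.10 to 0.93). The lower count of CCNH was therefore not told apart from that of GTF2H1 in this comparison. With palbociclib present, 8 of the 9 intervals lay below 0, including GTF2H1 at -0.73 (-0.97 to -0.48), and that of GTF2H4 held 0, at -1.08 (-2.43 to 0.26). Against CDK7 the difference was -1.09 (-1.31 to -0.87) without palbociclib and -1.99 (-2.24 to -1.74) with it. Against MNAT1 it was -0.77 (-1.05 to -0.50) and -1.44 (-1.76 to -1.11).

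**Figure D3:**
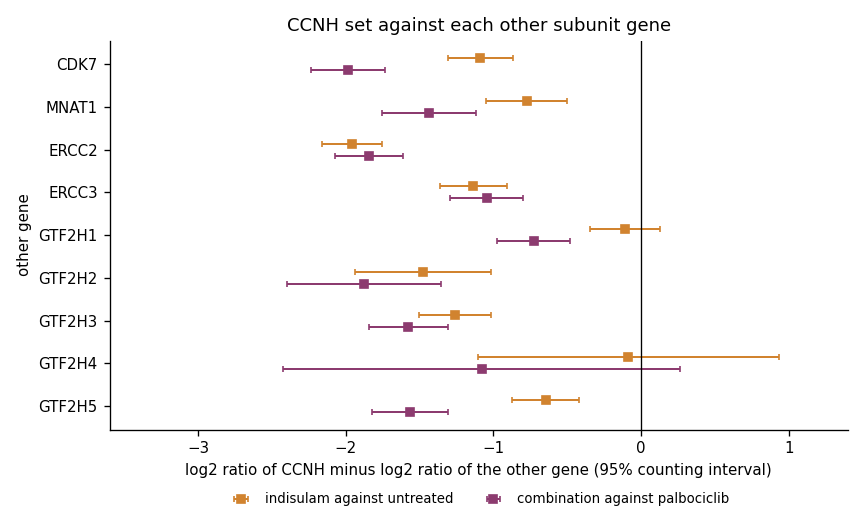
Log2 ratio of CCNH minus that of each other subunit gene (horizontal axis), for indisulam against untreated and for combination against palbociclib, with 95% Poisson counting intervals. All points lie below 0, and the intervals of GTF2H1 (-0.35 to 0.13) and GTF2H4 cross it for indisulam against untreated, as does that of GTF2H4 for combination against palbociclib.

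Because counting intervals leave out variation between cultures, the departure from additivity was used as a yardstick. It is what is left of the combination's log2 ratio to untreated after those of both single drugs are taken off. Its robust spread over genes of like CPM, divided by the square root of 2, is called the bound here. The bound limits the noise of a single log2 ratio from above only for a typical gene of its class. Variation shared by both libraries with indisulam cancels in it, so multiples of the bound are not test statistics. This bound was 0.26 for genes of 20 to 100 CPM, 0.28 at 100 CPM or more and 0.37 for genes of 5 to 20 CPM. The log2 ratio of CCNH was 3.27 times the bound for indisulam against untreated and 4.73 times for combination against palbociclib. For GTF2H1 the values were 2.84 and 1.94 times, for ERCC2 3.93 and 2.15 times and for CDK7 0.89 and 2.87 times. CDK7 without palbociclib thus lay within the bound.

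The departure itself was -0.38 (-0.66 to -0.10) for CCNH, close to the robust spread of 0.37 for its CPM class. It was -0.50 (-0.63 to -0.37) for ERCC2 and -0.47 (-0.66 to -0.28) for ERCC3, and 0.52 (0.33 to 0.71) for CDK7 and 0.54 (0.33 to 0.74) for GTF2H5. For these 5 genes the counting interval excluded 0 and the size exceeded the robust spread, which was 0.40 for the class of ERCC2 and 0.37 for that of the others, for CCNH by a small margin. That spread is itself exceeded by many genes, so the drugs were not shown to interact at any of them.

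Levels of different genes were compared per kilobase of merged exons. In the untreated library CDK7 had the highest level, at 27.1 CPM per kilobase, followed by ERCC2 at 16.6, GTF2H3 at 9.55 and GTF2H1 at 9.31. GTF2H5 (7.44), CCNH (7.43), ERCC3 (7.09) and MNAT1 (7.03) were close together. GTF2H2 (0.818) and GTF2H4 (0.547) were far below, with the limits on their counts given above. With indisulam ERCC2 was the highest at 35.5 CPM per kilobase, CDK7 was at 31.9 and CCNH at 4.10, and with the combination CDK7 was at 34.1 and CCNH at 3.19. The place of CCNH depends on the exon model: its merged exons span 5981 bases and its canonical transcript 1280 bases. With canonical lengths, an alternative added after the data were seen, CCNH was at 34.7 CPM per kilobase in the untreated library and changed from rank 6 to rank 2 among the 10 genes, behind CDK7 at 45.9.

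CCNH (ENSG00000134480, chr5:87318416-87412930, minus strand, GRCh38) overlaps RASA1 (chr5:87267883-87391931, plus strand), the gene of a Ras GTPase-activating protein. They share 771 exon bases on opposite strands, 12.9% of the CCNH exon bases, of which 0 lie in the canonical CCNH transcript. RASA1 had 936 counts without treatment, 649 under palbociclib, 1049 under indisulam and 837 under the combination. Its log2 ratios for indisulam were -0.25 (-0.37 to -0.12) and 0.19 (0.04 to 0.34). RASA1 was thus lower, as CCNH was, in the first comparison and higher in the second, and for combination against untreated it was at -0.35 (-0.49 to -0.22). The part of the overlap in the CCNH counts was not tested.

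Whether strand was used in counting is not given in the sources used here, although the library preparation was stranded. Exons of 132 genes lay wholly under exons of a gene with 4000 or more counts on the opposite strand. Of these genes, 85 (64.4%) had counts, with a median of 1 beside 7008 for the partner gene, and 0 exceeded the partner. Of 156 such genes on the same strand, 20 (12.8%) had counts, with a median of 0 beside 12839 for the partner gene. The gene ENSG00000285190, which is not among the genes of the tables used here, shares 496 exon bases with CCNH on the opposite strand, 253 of them in the canonical CCNH transcript. ERCC2 shares 535 exon bases with KLC3 on the opposite strand, and KLC3 had between 4 and 17 counts. The gene counts do not separate transcripts, so a change in which CCNH or ERCC2 exons were used was not analysed here.

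**Figure D4:**
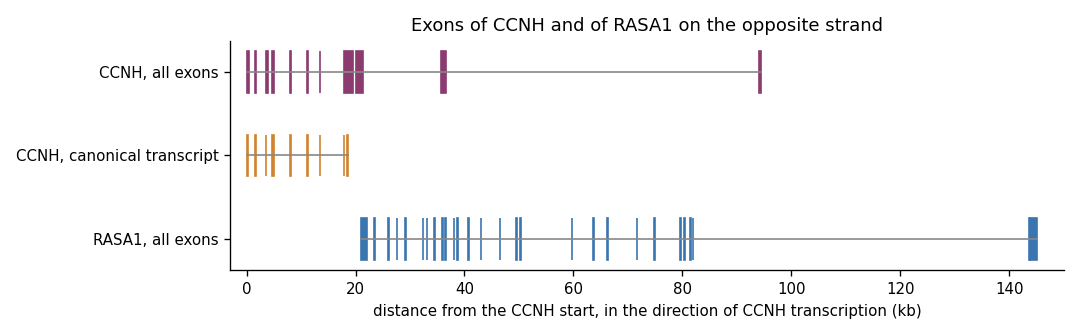
Exons of CCNH (all transcripts, and the canonical transcript) and of RASA1 on the opposite strand, drawn to scale by distance in kilobases from the CCNH start in the direction of CCNH transcription. The shared 771 exon bases lie outside the canonical CCNH transcript, whose exons end before those of RASA1 begin.

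CDK7 (ENSG00000134058, chr5:69234795-69277430) lies on the chromosome that also carries CCNH and GTF2H2 (chr5:71035016-71067689, minus strand). The other subunit genes are spread over other chromosomes: MNAT1 at chr14:60734742-60969965, ERCC2 at chr19:45349837-45370918, ERCC3 at chr2:127257290-127294166, GTF2H1 at chr11:18322295-18367045, GTF2H3 at chr12:123633739-123662604, GTF2H4 at chr6:30908207-30914106 and GTF2H5 at chr6:158168350-158199344.

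The machinery around TFIIH was summarised by 6 lists with 72 genes, of which 71 were tested. For indisulam against untreated 2 of these were called 2-fold lower, beside 6.71% of all tested genes, and 3 higher, beside 8.44%. For combination against palbociclib 2 were called lower, beside 7.4%, and 4 higher, beside 9.62%. For palbociclib against untreated 3 were lower (4.95% of all tested genes) and 0 higher (5.96%), for combination against indisulam 1 (3.19%) and 1 (5.09%), and for combination against untreated 3 (10.6%) and 3 (13%). None of these counts stood above the share over all tested genes. Only 1 of the 71, TAF12, was at or below CCNH in both comparisons with indisulam, beside 471 of all tested genes (3.3%). TAF12, a histone-fold subunit of TFIID and SAGA, was at 34.0, 39.2, 16.6 and 13.4 CPM in the untreated, palbociclib, indisulam and combination libraries. Its log2 ratios were -1.03 (-1.25 to -0.82) and -1.54 (-1.78 to -1.30).

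Of the 8 other general transcription factor genes none was called in either comparison with indisulam, beside 6.71% lower and 8.44% higher of all tested genes against untreated and 7.4% and 9.62% with palbociclib present. Their median log2 ratio was 0.41 for indisulam against untreated and 0.35 for combination against palbociclib. GTF2E2, a subunit of TFIIE, which recruits TFIIH to the promoter, was at -0.14 and 0.23, and GTF2A1 was at 0.58 and 0.89. Of the 16 TBP-associated factor genes 1 was called lower (TAF12) and 1 higher (TAF13, at 1.01 and 1.27) in each comparison with indisulam, near the same shares of all tested genes. The median of these 16 was 0.16 and -0.07. None of the 11 tested RNA polymerase II subunit genes was called, beside the same shares, and their medians were -0.03 and 0.03. POLR2A, whose tail is the substrate of CDK7 in TFIIH, was at -0.17 and -0.61, and POLR2D at 0.68 and 0.54.

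Of the 18 nucleotide excision repair partners, DDB2, which recognises UV damage, was called lower for indisulam against untreated, and ERCC6, which acts in transcription-coupled repair, was called higher for combination against palbociclib. These single calls stand beside 6.71% of all tested genes called lower and 9.62% called higher in the respective comparison. DDB2 was at 25.6 CPM without treatment and at 8.4, 9.9 and 6.8 CPM with palbociclib, indisulam and the combination, so it was low with either drug. ERCC6 was at 24.1, 34.1, 47.5 and 73.7 CPM. The median of this list was -0.17 and 0.21.

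Of 9 kinases whose activation loop the CDK-activating kinase phosphorylates, CDK6 was called higher in both comparisons with indisulam, at 1.11 and 1.15, and CDK1 in combination against palbociclib, beside 8.44% and 9.62% of all tested genes called higher. The cell cycle kinase CDK6 was at 28.2, 48.1, 60.9 and 107.0 CPM in the 4 libraries. CDK9, the kinase of the elongation factor P-TEFb, was the lowest of the list, at -0.40 and -0.74. The list had medians of 0.22 and 0.08. Of 9 other cyclins and kinases of transcription, CCNT2, a cyclin partner of CDK9, was called higher for indisulam against untreated at 1.02, beside 8.44% of all tested genes. CCNL2, a cyclin of splicing-related kinases, was called lower for combination against palbociclib at -1.09, beside 7.4%, with list medians of 0.36 and 0.20. CCNH therefore stood below every gene of these lists in both comparisons, except DDB2 for indisulam against untreated and TAF12 in both.

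**Figure D5:**
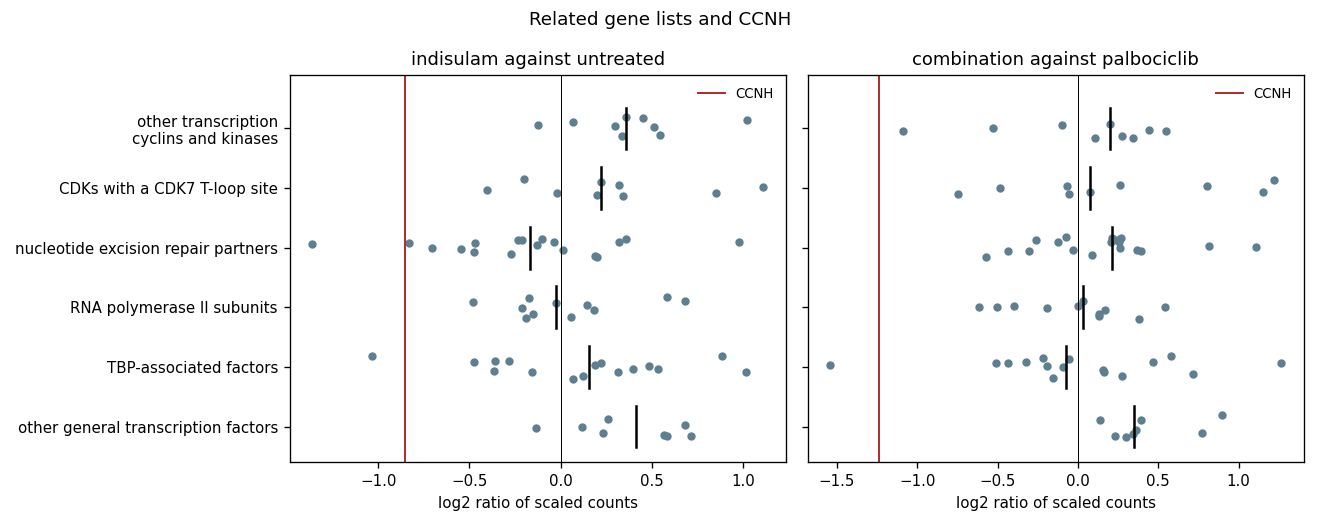
Log2 ratios of scaled counts (horizontal axes) for the tested genes of the 6 related lists, for indisulam against untreated (left) and combination against palbociclib (right), with 1 point per gene (vertical position within a list is arbitrary), black bars at list medians and a red line at CCNH. The line lies at -0.86 and -1.24, with TAF12 below it in both panels and DDB2 below it in the left panel.

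The genes whose CPM followed CCNH most closely over the 4 libraries were found by Euclidean distance between log2 CPM centred on their own means, among 8037 genes at a mean of 20 CPM or more. The 5 nearest were DNAJC4 (distance 0.0837), PDGFRA (0.0974), SESN1 (0.120), PITPNM1 (0.130) and PANK2 (0.137). None of them is a subunit gene or a gene of the related lists. With 4 libraries, closeness describes these libraries only.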

How the data were processed

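RNA of SUM159 cells was isolated with Trizol per the labels, and the series holds 1 stranded mRNA library per condition. The authors deposited raw read counts per Ensembl gene, not normalized. The submitters' processing notes name TopHat2 2.1, HTSeq and GRCh38, whereas the annotation release and the strand setting are not given in the sources used here. Reads that aligned to several places (6.46% to 6.84%), hit several genes (2.41% to 2.63%) or hit none (0.615% to 0.694%) were tallied apart and stayed out of totals. Counts were scaled from each library's gene total to the mean of the 4 totals and compared as log2 ratios with a pseudocount of 1 scaled count and Poisson intervals, which cover counting error only since reads are not independent molecules. Genes with a mean of 1 CPM or more were tested. Alternatives were scaling factors from edgeR 4.0.16 (TMM) and DESeq2 1.42.0 (size factors only, R 4.3.3), pseudocounts of 0.1 and 5, no filter or a filter of 5 CPM, and a 1.5-fold threshold. The log2 ratio calculation was tested on simulated counts that held counting noise only and large fold changes. Variation between cultures and smaller changes were not covered by it. Gene positions are from GENCODE release 44. Named genes were the 10 subunit genes, genes overlapping their exons, the copies of GTF2H2, the lowest and highest gene of each related list by mean indisulam ratio, and the 5 nearest to CCNH. CDK1 was named outside this rule after its values were seen. The members and lists were chosen with earlier results of these data known.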

Additional observations from a re-analysis of the deposited data

Results flagged for a closer look

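ERCC3 and GTF2H5 had log2 ratios of opposite sign in the 2 backgrounds. For ERCC3, the log2 ratio for indisulam was 0.28 against untreated and -0.19 for combination against palbociclib, and that for palbociclib was 0.20 against untreated and -0.27 for combination against indisulam. For GTF2H5, the log2 ratio for indisulam was -0.21 against untreated and 0.33 for combination against palbociclib. In multiples of the bound, the sizes for indisulam were 1.07 and 0.73 for ERCC3 and 0.80 and 1.25 for GTF2H5. Those of ERCC3 for palbociclib were 0.75 and 1.05. With 1 library per condition, these differences were not tested.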

How the results depend on the processing

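CCNH was between -0.93 and -0.85 on the log2 scale for indisulam against untreated over 6 alternatives, never past 2-fold, and between -1.33 and -1.22 for combination against palbociclib, always past 2-fold. The value of CCNH minus that of the other genes was between -1.24 and -0.93 and between -1.71 and -1.50 over 4 alternatives each. The comparators were the summed counts of the other 9, the median of 8 without GTF2H2, and the mean of CDK7 and MNAT1. The remaining alternative kept the median of all 9 with a pseudocount of 5. At a 1.5-fold threshold the number of subunit genes called became 4 for indisulam against untreated, 4 for combination against palbociclib and 1 for combination against indisulam, since the threshold is lower. With no filter on low counts it became 2 for combination against untreated, since GTF2H4 was added. Under the other alternatives these counts stayed within 1.5 times. No paired analysis was possible because each condition has 1 library and no result comes from a test. Low counts limit the ratios of GTF2H4, and repeated sequence limits the counts of GTF2H2.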
